A study of Mus musculus with 6 samples.

Results

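The genes described here are type I interferon stimulated genes, measured in white adipose tissue of mice given ginsenoside Rb1, a saponin of ginseng, or saline. They were taken from a list of 35 gene symbols, chosen with earlier results of these data known. Of these symbols, 34 were matched to an Ensembl identifier among the 22040 genes of the table. Mx2 was not analysed here. All 34 passed the filter on low counts, with 32 to 4316 counts per gene and library. The control group (CTR) was 3 libraries from mice that received saline intraperitoneally, and the Rb1 group was 3 libraries from mice that received Rb1 by the same route at 14 mg/kg per day. The labels name no strain, age, sex, diet, fat depot or duration of dosing. Nor do they state that each library is a different mouse, and the p-values then measure only the spread between these libraries, which may be technical.

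Type I interferons bind a receptor whose kinases, JAK1 and TYK2, phosphorylate STAT2. With IRF9 it forms part of a complex that binds interferon-stimulated response elements in gene promoters. The induced proteins sense viral nucleic acid, block viral translation or assembly, attach the ubiquitin-like ISG15 to other proteins, or amplify the pathway itself, and many are present at a basal level in uninfected tissue.

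The promoters of the members were searched for the sequences through which such genes respond to interferon. RefSeq promoters on GRCm38.p6, from 250 bases before to 50 bases after the annotated start, were matched by symbol for 26 of the 35 members. No entry was matched for Dhx58, Zbp1, Oas2, Mx1, Mx2, Usp18, Parp9, Parp14 and Rtp4. The core of the interferon-stimulated response element (ISRE) was searched on both strands as GAAA, any 2 bases and GAAA again, so that a match on the other strand reads TTTC, any 2 bases and TTTC. It was present in 14 of the 26 members, or 53.8%, against 3.99% of the 27025 genes with a promoter of that length. Matches numbered 2 or more in 6 members, or 23.1%, against 0.266% of all genes. The core of the gamma-activated site (GAS), TTCNNNGAA, which reads the same on both strands, was present in 6 members, or 23.1%, against 9.55% of all genes. A match describes letters in the window and does not show that a factor binds there.

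The 250 bases before the start are printed for 6 members, chosen after their values were seen. Stat2, Oas1a, Ifit3 and Isg15 had every Rb1 library below every control, and Gbp7 and Rsad2 were highest in a single Rb1 library. Capitals mark the ISRE core, and each run is 5′ to 3′ on the strand of the gene. The regions are chr10:128270248-128270497 for Stat2 (plus strand), chr5:120907526-120907775 for Oas1a (minus strand), chr19:34583279-34583528 for Ifit3 (plus strand), chr4:156200819-156201068 for Isg15 (minus strand), chr3:142530086-142530335 for Gbp7 (plus strand) and chr12:26456453-26456702 for Rsad2 (minus strand).
Stat2: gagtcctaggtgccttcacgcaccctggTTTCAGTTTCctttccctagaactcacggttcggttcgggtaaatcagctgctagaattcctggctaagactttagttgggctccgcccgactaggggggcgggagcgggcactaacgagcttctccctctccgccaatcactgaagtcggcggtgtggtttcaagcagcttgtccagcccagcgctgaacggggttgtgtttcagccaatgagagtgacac
Oas1a: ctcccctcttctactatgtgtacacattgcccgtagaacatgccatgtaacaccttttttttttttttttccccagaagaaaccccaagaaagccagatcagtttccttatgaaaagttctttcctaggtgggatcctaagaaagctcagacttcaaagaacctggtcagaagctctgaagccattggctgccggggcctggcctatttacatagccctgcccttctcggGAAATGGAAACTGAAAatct
Ifit3: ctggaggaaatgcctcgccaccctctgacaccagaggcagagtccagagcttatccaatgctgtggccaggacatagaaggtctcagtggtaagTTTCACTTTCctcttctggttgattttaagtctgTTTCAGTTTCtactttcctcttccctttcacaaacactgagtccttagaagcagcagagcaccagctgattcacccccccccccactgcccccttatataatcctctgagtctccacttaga
Isg15: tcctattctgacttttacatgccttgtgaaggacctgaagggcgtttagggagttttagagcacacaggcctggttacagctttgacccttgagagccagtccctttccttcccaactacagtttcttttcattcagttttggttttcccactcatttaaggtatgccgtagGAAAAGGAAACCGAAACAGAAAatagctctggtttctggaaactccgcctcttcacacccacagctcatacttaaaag
Gbp7: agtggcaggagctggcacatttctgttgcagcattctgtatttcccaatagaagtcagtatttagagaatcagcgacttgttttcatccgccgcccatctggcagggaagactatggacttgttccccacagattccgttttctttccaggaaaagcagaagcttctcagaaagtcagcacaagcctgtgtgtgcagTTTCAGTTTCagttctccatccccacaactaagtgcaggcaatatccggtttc
Rsad2: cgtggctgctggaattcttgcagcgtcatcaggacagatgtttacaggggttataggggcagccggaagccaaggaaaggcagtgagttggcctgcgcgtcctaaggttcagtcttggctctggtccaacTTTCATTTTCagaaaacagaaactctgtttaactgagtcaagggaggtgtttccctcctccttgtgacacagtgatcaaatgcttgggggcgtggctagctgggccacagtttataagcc

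Isg15 carried 3 overlapping ISRE cores in a row, which began 78, 72 and 66 bases before the start. Oas1a carried 2 overlapping cores that began 20 and 14 bases before it, and a GAS core 98 bases before it that shared no base with them. In Ifit3 the 2 cores, at 156 and 122 bases, were separate and read on the other strand. The single cores of Stat2 (222 bases), Gbp7 (53 bases) and Rsad2 (120 bases) were also on the other strand. Among the members not printed, Ifit1, Gbp3 and Bst2 held 2 cores each. In Bst2 the first of them overlapped a GAS core. The 12 with no ISRE core in this window were Irf7, Irf9, Ifit2, Oasl1, Oasl2, Herc6, Trim25, Dtx3l, Cmpk2, Samd9l, Ifi44 and Ifi35. The search allowed no mismatch and no other spacing, so a missing match does not show that the element is absent.

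**Figure D1:**
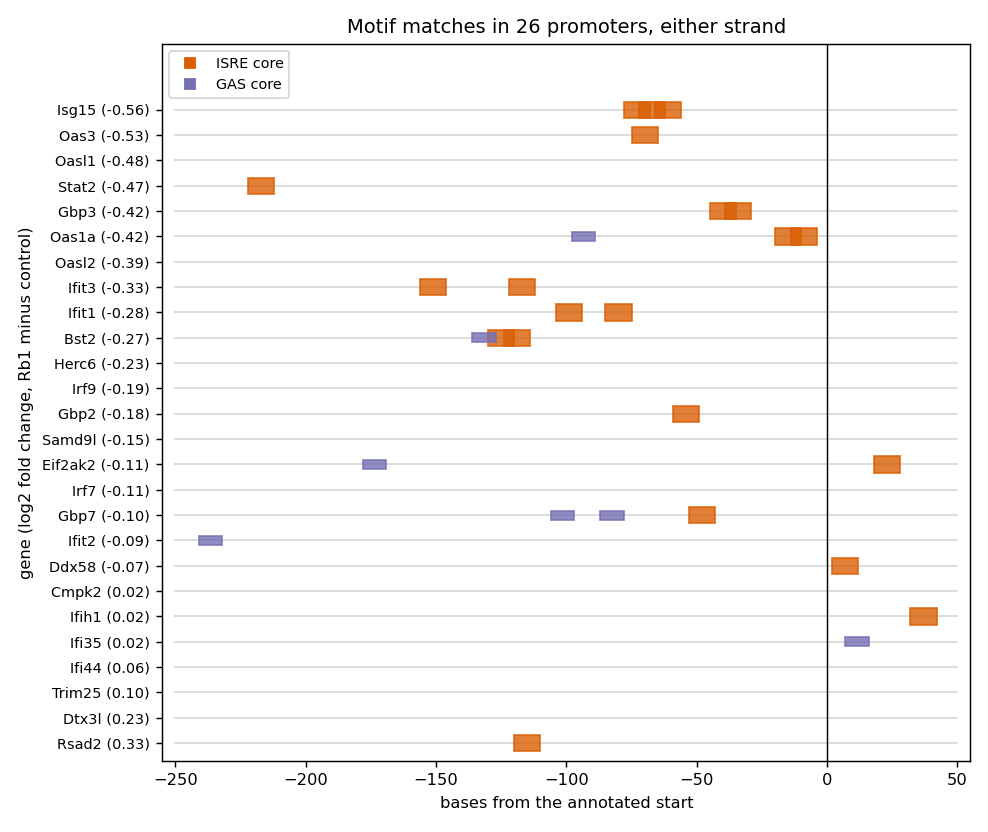
Positions of ISRE core (orange) and GAS core (purple) matches on either strand in the promoters of 26 members, in bases from the annotated start (0). Genes are ordered by log2 fold change, given in brackets as Rb1 minus control, and 14 of the 26 carry an orange box.

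Of the interferon-stimulated genes, none passed an adjusted p of 0.05 in either direction. Their differences were small and mostly on the lower side with Rb1. The log2 fold change was below 0 in 24 of 34 members (70.6%), against 48.7% of the 14093 genes tested, and its median was -0.16 against 0.01 for all genes. The other 10 lay above 0, against 51.3% of all genes. The members were listed with earlier results of these data known, so these shares describe the list and were not tested. With libraries scaled to their totals alone, 28 of 34 lay below 0, against 56.4% of all genes, whose median was then -0.04. The members ran from -1.32 for Mx1 to 0.33 for Rsad2, with a median standard error of 0.16. Over all genes edgeR called 0.0% lower and 0.0071% higher, and of the members it called 0. On simulated data the same test recovered 35% of 2-fold changes, so the lack of a call does not show that a gene is unchanged. An unadjusted edgeR p under 0.05 was reached by 6 members with Rb1 lower (17.6%, against 7.54% of all genes) and by 0 with Rb1 higher (against 4.01%). DESeq2 also called 0 members, where over all genes it called 2.14% lower and 0.579% higher, and 6 members, all lower, had an unadjusted DESeq2 p under 0.05 (17.6%, against 7.15% of all genes lower and 4.45% higher).

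In 12 of 34 members (35.3%) every Rb1 library lay below every control library, against 9.74% of all genes tested. In 0 members did every Rb1 library lie above every control, against 7.73% of all genes. The 12 were Mx1, Zbp1, Isg15, Rtp4, Oas3, Stat2, Oas1a, Oasl2, Ifit3, Ifit1, Samd9l and Eif2ak2. With libraries scaled to their totals alone the separation held in 9 members (26.5%), against 10.5% of all genes. For a single gene such a separation has a two-sided exact permutation p of 0.1, the smallest that 3 libraries against 3 allow.

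Of the 14 members with an ISRE core in the promoter, 12 lay below 0, 7 had groups that did not overlap, and the median was -0.28. The 12 members with a promoter and no such core had 7 below 0, 2 without overlap and a median of -0.10. The 8 without a promoter entry had 5 below 0, 3 without overlap and a median of -0.18. Mx1 and Zbp1, the lowest of all members, are among these 8. Over all genes tested 48.7% lay below 0, and in 9.74% every Rb1 library lay below every control. The counts of the 3 sets were not tested against each other.

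**Figure D2:**
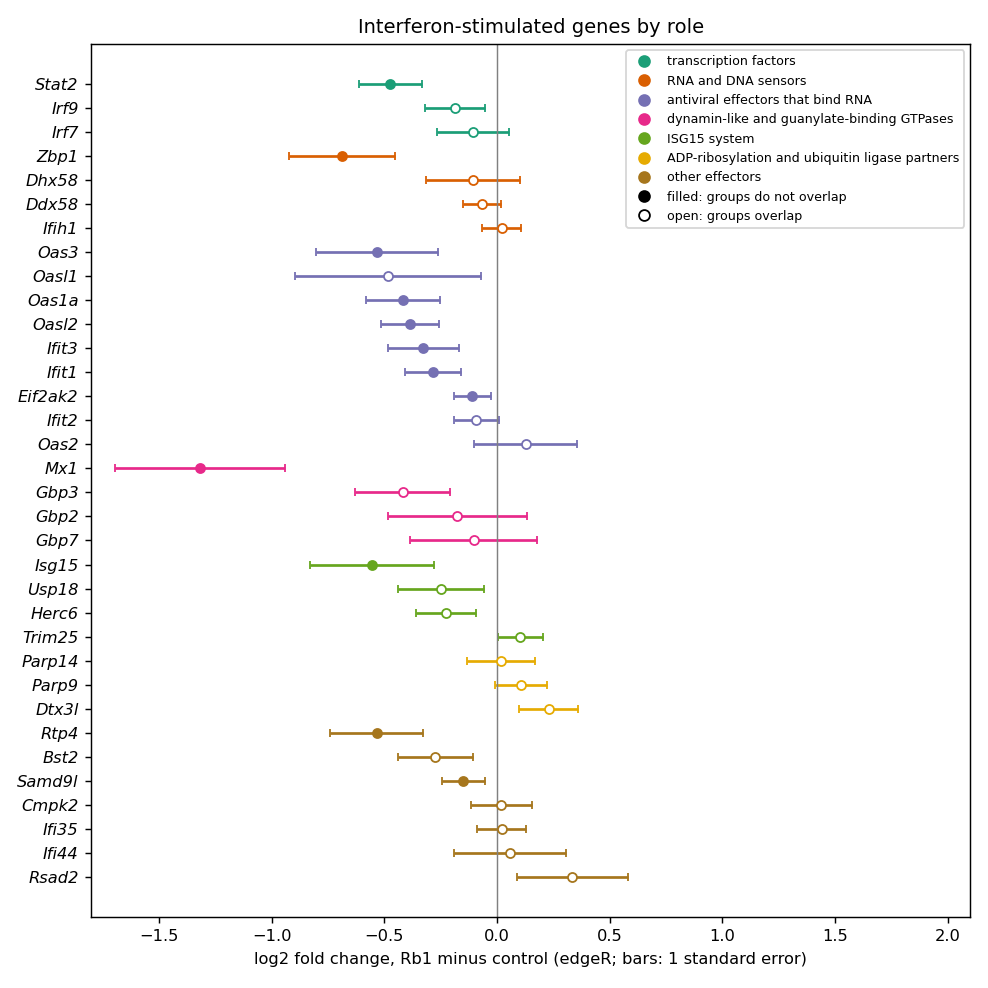
Log2 fold change (Rb1 minus control, edgeR) with 1 standard error for the 34 members, grouped and coloured by role. The 12 filled points, all left of 0, are genes whose control and Rb1 libraries do not overlap, and open points are genes whose groups overlap.

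The libraries also differed in other ways. Total counts were 15440339 to 24501446 per library. Levels are given below as normalised FPKM, the deposited read count per gene length and library total, rescaled by the edgeR library factors. Control replicate 2 carried skeletal muscle transcripts, with 12 markers summing to 10200 normalised FPKM against 148 and 157 in the other controls and 17.2 to 58.7 in the Rb1 libraries. Of 16 macrophage markers 14 lay below 0, with a median log2 fold change of -0.50. In 9 every Rb1 library lay below every control, against 9.74% of all genes tested. Of the 16 markers edgeR called 0 and DESeq2 called 5, all lower, against 2.14% of all genes lower. Itgax, Trem2 and Cd68, with the smallest edgeR p, were at log2 fold changes of -1.55, -1.42 and -0.91. Their edgeR adjusted p were 0.0744, 0.155 and 0.174, and their DESeq2 adjusted p were 4.05e-15, 2.29e-05 and 0.00039. The 2 above 0 were Cd163 (0.23) and Mertk (0.16). In replicates 1, 2 and 3, the 16 markers summed to 1360, 1680 and 1310 normalised FPKM in the controls. With Rb1 they summed to 784, 1200 and 1170, and none was at 0 in all libraries. In the same order the members summed to 319, 382 and 330 in the controls and to 358, 276 and 290 with Rb1. Rb1 replicate 1 was thus the lowest Rb1 library for the marker sum and the highest for the member sum. The part of macrophages in the members' values was not tested. In bulk tissue, fewer cells of a type and less RNA per cell cannot be told apart. The 8 adipocyte markers, which check the labelled tissue, summed to 4530 to 5920 normalised FPKM in every library.

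Of the 3 transcription factors of the pathway all had log2 fold changes below 0, and 1 had separate groups. Stat2 (chr10:128270559-128292849) encodes the subunit of the interferon-activated complex that carries its transactivation domain. Its levels were 7.46, 8.37 and 6.32 normalised FPKM in the controls and 5.24, 5.96 and 4.76 with Rb1, in the order of replicates 1, 2 and 3, which is kept for every gene below. The lowest control stood above the highest Rb1 library. From 7.38 ± 1.02 to 5.32 ± 0.606 (SD, n = 3 each), the log2 fold change was -0.47 with a standard error of 0.14 (edgeR adjusted p = 0.292), and it ran from -0.58 to -0.37 when 1 library was left out.

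Irf9, the partner that recognises the DNA element, stood at 3.63, 3.98 and 3.19 normalised FPKM in the controls and at 3.31, 3.42 and 2.77 with Rb1. Its groups overlapped (log2 fold change -0.19, standard error 0.13, edgeR adjusted p = 0.655), and the log2 fold change was -0.11 without control replicate 2 and -0.10 without Rb1 replicate 3. Irf7, the interferon-induced factor that amplifies interferon production, had 2.38, 2.93 and 1.95 in the controls and 2.29, 2.21 and 2.24 with Rb1. All 3 Rb1 values of Irf7 lay inside the control range (log2 fold change -0.11, standard error 0.16, edgeR adjusted p = 0.85), and the log2 fold change was 0.05 without control replicate 2. Exons of Irf9 overlap those of Rnf31 and exons of Irf7 those of Phrf1, and reads in the shared stretches may belong to either gene.

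Among the 4 sensors the 3 helicases had overlapping groups, and Zbp1 had separate ones. Ifih1, which encodes the RNA sensor MDA5, stood at 5.03, 5.50 and 5.69 normalised FPKM in the controls and at 5.50, 5.47 and 5.48 with Rb1. Its log2 fold change was 0.02 (standard error 0.09, edgeR adjusted p = 0.957) and turned to -0.02 with libraries scaled to their totals alone. Ddx58, which encodes RIG-I, had control levels of 5.43, 5.86 and 5.58 and Rb1 levels of 5.21, 5.66 and 5.24 (log2 fold change -0.07, standard error 0.09, edgeR adjusted p = 0.829). Dhx58, which encodes their relative LGP2, was at -0.10 (standard error 0.21).

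Zbp1 (chr2:173206612-173218923) encodes a sensor of Z-form nucleic acid that can trigger cell death. It stood at 3.43, 4.90 and 3.41 normalised FPKM in the controls and at 3.11, 2.31 and 1.87 in the Rb1 libraries. Control replicate 2 was the highest, and Rb1 replicate 1 lay closest to the controls. The groups were at 3.91 ± 0.853 and 2.43 ± 0.627 (SD, n = 3 each). The log2 fold change of Zbp1 was -0.69 (standard error 0.24, edgeR adjusted p = 0.344). It was -0.91 without Rb1 replicate 1 and -0.49 without control replicate 2.

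Of the 9 antiviral effectors that bind RNA, 8 had log2 fold changes below 0 and 6 had separate groups, with a median of -0.33. The IFIT proteins bind viral RNA, and Ifit2, Ifit3 and Ifit1 lie near each other on chromosome 19. Ifit3 stood at 32.7, 31.4 and 31.9 normalised FPKM in the controls and at 27.7, 19.5 and 29.3 with Rb1. The controls were close together and Rb1 replicate 2 was the lowest. The log2 fold change of Ifit3 was -0.33 (standard error 0.16, edgeR adjusted p = 0.497), and -0.17 without Rb1 replicate 2. Ifit1 had 8.17, 8.98 and 7.27 in the controls and 6.90, 6.87 and 6.30 with Rb1, also without overlap (log2 fold change -0.28, standard error 0.12, edgeR adjusted p = 0.446). Ifit2 was at -0.09 (standard error 0.10) with overlapping groups. Of the 50-base stretches of Ifit3 transcripts 51.24% occur in another gene, chiefly its copy Ifit3b, so the split of reads between the copies is uncertain.

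The oligoadenylate synthetases make the messenger that activates RNase L. Oas1a (chr5:120896256-120907521) stood at 6.20, 7.73 and 5.67 normalised FPKM in the controls and at 4.50, 5.18 and 5.02 with Rb1. Its groups did not overlap (log2 fold change -0.42, standard error 0.16, edgeR adjusted p = 0.412). Of its 50-base stretches 57.57% are shared with other genes, Oas1g and Oas1b among them, and its count is uncertain for that reason. Oasl2, an OAS-like gene, had 4.54, 4.76 and 3.76 in the controls and 3.69, 3.26 and 3.04 with Rb1, which were all lower (log2 fold change -0.39, standard error 0.13, edgeR adjusted p = 0.338). Oas3, at a lower level, had 0.537, 0.863 and 0.462 in the controls and 0.457, 0.436 and 0.396 with Rb1. The Oas3 groups were barely apart, and the log2 fold change of -0.53 (standard error 0.27, edgeR adjusted p = 0.514) was -0.22 without control replicate 2.

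Neighbours of these genes had other values. Oas2, next to Oas3 on chromosome 5, had 1.5 to 2.46 normalised FPKM in the controls and 2.04 to 2.83 with Rb1, a log2 fold change of 0.13 (standard error 0.23). Oasl1, next to Oasl2, ranged from 0.594 to 1.97 in the controls and from 0.753 to 0.908 with Rb1. Control replicate 1 set its log2 fold change of -0.48 (standard error 0.41), which was 0.09 without that library. Eif2ak2, which encodes the kinase PKR that halts translation, stood at 11.0, 11.5 and 10.8 in the controls and at 9.95, 10.7 and 10.2 with Rb1. Its groups were separate by a small margin (log2 fold change -0.11, standard error 0.08, edgeR adjusted p = 0.672).

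The 4 GTPases all had log2 fold changes below 0, and among them Mx1 had the lowest value of the 34 members. Mx1 (chr16:97447035-97462907) encodes a dynamin-like antiviral GTPase that is defective in many inbred mouse strains. It had 129, 148 and 50 counts in the controls and 38, 32 and 50 counts with Rb1. Normalised FPKM were 1.21, 1.19 and 0.479 in the controls and 0.342, 0.412 and 0.405 with Rb1. Control replicate 3 lay just above the Rb1 libraries, which were close to each other. The groups were at 0.962 ± 0.418 and 0.387 ± 0.0386 (SD, n = 3 each), a fold of 0.402. The log2 fold change was -1.32 (standard error 0.38, edgeR adjusted p = 0.28, DESeq2 adjusted p = 0.0746). It ran from -1.64 to -1.11 when 1 library was left out, and the smallest edgeR adjusted p among those fits was 0.08, without control replicate 3.

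The guanylate-binding proteins are large GTPases that attack the vacuoles of intracellular pathogens and respond strongly to interferon gamma as well. Gbp2 (chr3:142620602-142638008), the member with the highest control level per length, stood at 39.7, 64.6 and 48.3 normalised FPKM in the controls and at 66.6, 32.8 and 35.6 with Rb1. Rb1 replicate 1 was the highest of the 6 libraries and the other Rb1 libraries were the lowest. Its log2 fold change of -0.18 (standard error 0.31, edgeR adjusted p = 0.877) was 0.03 without control replicate 2 and -0.57 without Rb1 replicate 1. Gbp3 had 10.5, 13 and 13.6 in the controls and 12.3, 7.39 and 8.07 with Rb1 (log2 fold change -0.42, standard error 0.21, edgeR adjusted p = 0.508), and was at -0.68 without Rb1 replicate 1. Gbp7 had 12.7, 16.8 and 17.3 in the controls and 21.3, 11.8 and 10.4 with Rb1 (log2 fold change -0.10, standard error 0.28). In Gbp2, Gbp3 and Gbp7, Rb1 replicate 1 stood at 1.95, 1.59 and 1.92 times the mean of the other Rb1 libraries. The sample values of Gbp7, and those of Rsad2 and Dtx3l below, are given after they were seen.

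**Figure D3:**
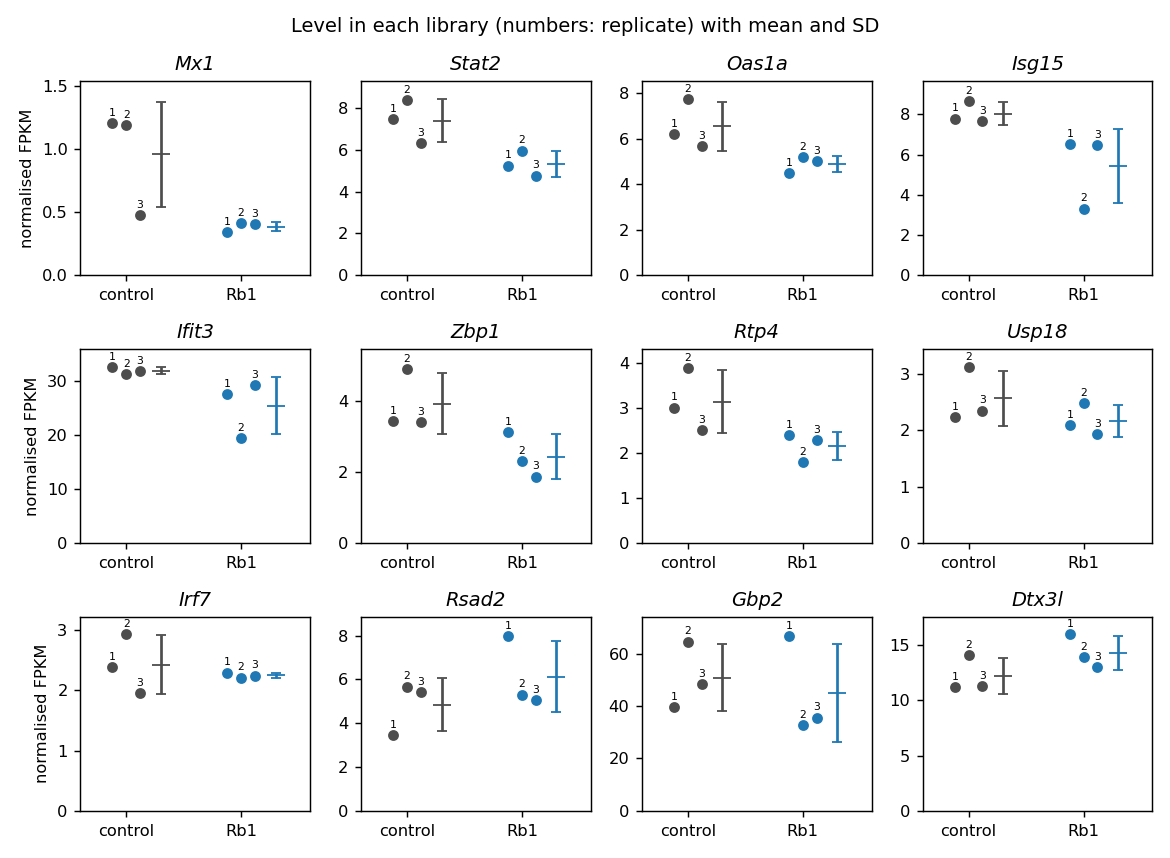
Normalised FPKM of 12 members in each library, with the replicate number above each point and the group mean and SD (n = 3) beside the points, on axes that start at 0. In Mx1, Stat2, Oas1a, Isg15, Ifit3, Zbp1 and Rtp4 every Rb1 library is below every control, while in Gbp2 Rb1 replicate 1, at 66.6, is the highest of the 6.

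In the ISG15 system 3 of 4 genes had log2 fold changes below 0, and the modifier itself had separate groups. Isg15 (chr4:156199424-156200818) stood at 7.79, 8.68 and 7.67 normalised FPKM in the controls and at 6.52, 3.32 and 6.48 with Rb1. Rb1 replicate 2, the library with the fewest counts, was the lowest. From 8.05 ± 0.554 to 5.44 ± 1.84 (SD, n = 3 each), the log2 fold change was -0.56 (standard error 0.28, edgeR adjusted p = 0.506), and it was -0.31 without Rb1 replicate 2. Usp18, the protease that removes ISG15 and restrains the interferon receptor, had 2.23, 3.13 and 2.35 in the controls and 2.1, 2.48 and 1.93 with Rb1. The groups overlapped, and the log2 fold change of -0.25 (standard error 0.19, edgeR adjusted p = 0.685) was -0.08 without control replicate 2. Herc6, an ISG15 ligase of the mouse, was at -0.23 (standard error 0.13), and Trim25, a ubiquitin ligase that acts with RIG-I, was at 0.10 (standard error 0.10). Both had overlapping groups.

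The 3 genes of ADP-ribosylation and its ubiquitin ligase partner had log2 fold changes above 0, with a median of 0.11 and overlapping groups. Dtx3l (chr16:35926511-35939151) encodes the ubiquitin ligase that pairs with the ADP-ribosyltransferase PARP9. It had 11.2, 14.1 and 11.3 normalised FPKM in the controls and 16.0, 13.9 and 13 with Rb1. Control replicate 2 lay inside the Rb1 range (log2 fold change 0.23, standard error 0.13, edgeR adjusted p = 0.574). Parp9 was at 0.11 (standard error 0.12). Parp14, a further ADP-ribosyltransferase, was at 0.02 (standard error 0.15) and below 0 with libraries scaled to their totals alone. In all 3 the highest library was Rb1 replicate 1. Exons of Parp9 and Dtx3l overlap on opposite strands, and without a stated strand setting their reads there cannot be told apart.

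Of the 7 other effectors, 3 lay below 0 and 4 above. Rtp4 (chr16:23520291-23614222), which encodes a chaperone of G protein-coupled receptors, stood at 3, 3.88 and 2.5 normalised FPKM in the controls and at 2.39, 1.8 and 2.28 with Rb1. These groups did not overlap (log2 fold change -0.53, standard error 0.21, edgeR adjusted p = 0.404), and the log2 fold change was -0.35 without control replicate 2. Its exons overlap those of Gm45338 on the same strand. Bst2, which encodes tetherin and is also a marker of plasmacytoid dendritic cells, had 37.6, 52.8 and 37.6 in the controls and 38.9, 31.6 and 35.4 with Rb1. Control replicate 2 stood apart, and the log2 fold change of -0.27 (standard error 0.16, edgeR adjusted p = 0.594) was -0.09 without it. Samd9l, a restriction factor of poxviruses, had 22.4, 25.3 and 22.6 in the controls and 21, 21 and 21.5 with Rb1, a small separation (log2 fold change -0.15, standard error 0.09, edgeR adjusted p = 0.61). The log2 fold change of Samd9l was -0.09 without control replicate 2.

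Rsad2 and Cmpk2 are neighbours on chromosome 12, separated by 12751 bases. Rsad2 (chr12:26442746-26456452) encodes viperin, which converts a nucleotide into a chain terminator, and Cmpk2 encodes a mitochondrial nucleotide kinase. Rsad2 stood at 3.47, 5.67 and 5.42 normalised FPKM in the controls and at 7.98, 5.31 and 5.05 with Rb1. Only Rb1 replicate 1 lay above the controls (log2 fold change 0.33, standard error 0.25, edgeR adjusted p = 0.67), and the log2 fold change was 0.10 without it. Cmpk2 was at 0.02 (standard error 0.14). Ifi35 and Ifi44, a further pair of interferon-induced genes, were at 0.02 and 0.06 with overlapping groups. Cmpk2 and Ifi35 lay below 0 with libraries scaled to their totals alone.

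Across libraries the members did not share 1 profile. Control replicate 2 held the highest value of 17 members and the lowest of 0. Rb1 replicate 1 held the highest of 9, which were Gbp2, Gbp7, Dhx58, Rsad2, Cmpk2, Parp9, Parp14, Dtx3l and Ifi35, and the lowest of 5, which were Mx1, Oas1a, Samd9l, Eif2ak2 and Ddx58. Rb1 replicates 2 and 3 held the lowest value of 11 and 10 members. The median log2 deviation from the control mean was -0.04, 0.13 and -0.08 in the controls and -0.11, -0.17 and -0.25 with Rb1. The members' median log2 fold change was -0.09 without control replicate 2 and -0.25 without Rb1 replicate 1. Without control replicate 2, every Rb1 library lay below every control in 13 members (38.2%, against 13.7% of all genes). Every Rb1 library lay above in 2, against 11.7% of all genes. Without Rb1 replicate 1 these counts were 18 (52.9%, against 16.0%) and 0 (against 15.1%).

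**Figure D4:**
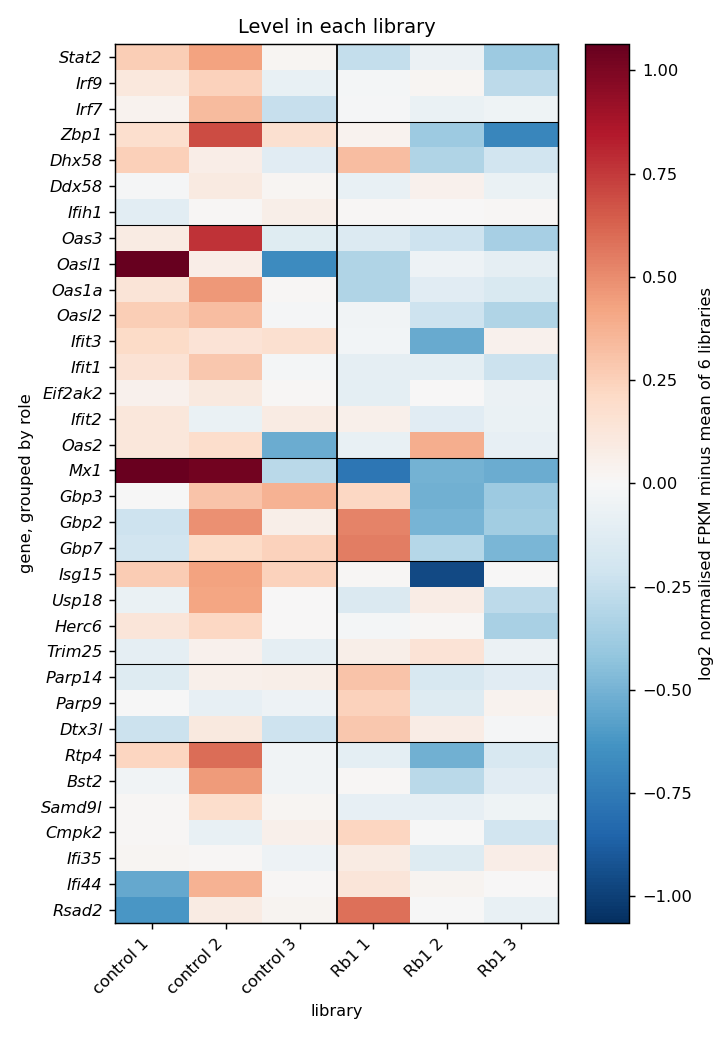
Log2 normalised FPKM of the 34 members in each of the 6 libraries minus the mean of the 6, with black lines between roles. Red is above and blue below the gene's own mean, control 2 is the highest library for 17 genes, and Rb1 1 is the highest for 9.

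T and NK cell markers differed between the same libraries. The summed level of 11 T and NK cell markers was 11.7, 21.1 and 7.26 normalised FPKM in the controls and 10.4, 3.40 and 6.64 with Rb1, so that control replicate 2 was the highest and Rb1 replicate 1 the highest of its group. All 11 had log2 fold changes below 0, with a median of -0.77, and none was at 0 in all libraries. That median was -0.44 without control replicate 2 and -1.32 without Rb1 replicate 1. Counts of some T and NK cell markers were low, as in Cd3d with 21, 18 and 12 in the controls and 25, 0 and 7 with Rb1. Ifng, the interferon of these cells and an inducer of the Gbp genes, had 0, 12 and 3 counts in the controls and 20, 0 and 0 with Rb1, and a count of 0 allows up to 3. B cell markers had another order, with sums of 7.0, 5.77 and 4.88 in the controls and 4.08, 3.06 and 3.13 with Rb1. Of these 7 markers 4 lay below 0 and 3 above, with a median of -0.15. The 7 plasmacytoid dendritic cell markers tested had 5 below 0. All 8 listed summed to 8.26, 52.1 and 6.25 in the controls and to 7.57, 4.32 and 5.35 with Rb1. That list holds Cox6a2, also a muscle gene, which alone stood at 45.8 in control replicate 2. Endothelial markers, with 7 of 7 above 0, summed to 230 to 264 in the controls and to 388, 243 and 287 with Rb1. The part of these cells in the members' values was not tested.

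Upstream of the members, the type I interferon genes examined were at or near 0 counts, and the groups overlapped for both chains of the type I receptor. Ifna1, Ifna2 and Ifna4 had 0 counts in all 6 libraries, which allows up to 3 counts or 0.122 to 0.194 CPM (counts scaled to library size). Ifnb1 had 2 counts in Rb1 replicate 3 and 0 in the rest. The receptor chains Ifnar1 and Ifnar2, chosen for this role and not for their p, were at log2 fold changes of -0.14 and 0.03. Of 18 listed ligands, receptors, kinases and regulators 13 were tested, with 8 below 0, 5 above and a median of -0.10. DESeq2 called 2.14% of all genes lower. Of this list edgeR called 0 and DESeq2 called 2, also lower. These were Ptpn6, a phosphatase of blood cells that restrains JAK signalling, at 7.77, 9.33 and 6.52 normalised FPKM in the controls and 4.20, 4.74 and 4.33 with Rb1 (log2 fold change -0.83, edgeR adjusted p = 0.167, DESeq2 adjusted p = 0.000987), and Ifngr2, a chain of the interferon gamma receptor. Ifngr2 had 19.3, 20.1 and 17.6 in the controls and 12.1, 13.3 and 14.6 with Rb1 (log2 fold change -0.51, edgeR adjusted p = 0.198, DESeq2 adjusted p = 0.0123). Socs3, a feedback inhibitor of cytokine receptors, was at -0.49 with every Rb1 library below every control (edgeR adjusted p = 0.311). The other chain of the interferon gamma receptor, Ifngr1, was at 0.44 with every Rb1 library above every control (edgeR adjusted p = 0.337).

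Genes that sense nucleic acid upstream of interferon had 14 of 16 log2 fold changes below 0, with a median of -0.21. In 5 every Rb1 library was lower, against 9.74% of all genes tested. edgeR called 0 and DESeq2 called 2 as lower, against 2.14% of all genes. Irf5, a factor of myeloid cells that acts after Toll-like receptors, had 8.38, 8.83 and 6.91 normalised FPKM in the controls and 5.20, 5.48 and 4.79 with Rb1 (log2 fold change -0.64, edgeR adjusted p = 0.195, DESeq2 adjusted p = 0.0101). Ikbke, a kinase that activates interferon regulatory factors, was at -0.57 (edgeR adjusted p = 0.201, DESeq2 adjusted p = 0.0257). Tlr9, the receptor for unmethylated DNA, and Tmem173, which encodes STING, were at -0.87 and -0.37. Macrophages express these genes too, and their part in these values was not tested.

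A further 36 type I interferon response genes outside the member list were nearly balanced, with 21 below 0, 15 above and a median of -0.02. In 4 every Rb1 library was lower and in 4 every Rb1 library was higher, against 9.74% and 7.73% of all genes tested. DESeq2 called 2.14% of all genes lower. edgeR called 0 of the 36 and DESeq2 called 2, Slfn2 at -0.69 (edgeR adjusted p = 0.184, DESeq2 adjusted p = 0.00552) and Ddx60, a helicase that aids RIG-I, at -0.79 (edgeR adjusted p = 0.201, DESeq2 adjusted p = 0.0189). Epsti1, an interferon-induced gene, was at -0.55 with all Rb1 libraries lower (edgeR adjusted p = 0.357), and at -0.37 without control replicate 2. Slfn5, of the same family as Slfn2, was at 0.34 with all Rb1 libraries higher (edgeR adjusted p = 0.358).

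The 24 interferon gamma GTPases and class I antigen presentation genes all had log2 fold changes below 0, with a median of -0.35. In 2 of them every Rb1 library was lower, against 9.74% of all genes tested. The list median was -0.15 without control replicate 2 and -0.70 without Rb1 replicate 1. T and NK cell markers were highest within their groups in these libraries, and control replicate 2 also carried skeletal muscle transcripts. The part of either in these medians was not tested. Over all genes DESeq2 called 2.14% lower. edgeR called 0 and DESeq2 called 1, Irf8, a factor of macrophages and dendritic cells, at 6.77, 6.83 and 4.88 normalised FPKM in the controls and 3.77, 2.79 and 2.94 with Rb1 (log2 fold change -0.96, edgeR adjusted p = 0.174, DESeq2 adjusted p = 0.000809). Ccl5, a chemokine of T cells, was at -1.25 (edgeR adjusted p = 0.396), and Ciita, the activator of class II genes, was at -0.74 (edgeR adjusted p = 0.466) and at -0.38 without control replicate 2. Both had overlapping groups. B2m, the light chain of class I molecules, was at -0.32 with all Rb1 libraries lower (edgeR adjusted p = 0.467). The plot of all lists sets these medians beside that of the members.

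**Figure D5:**
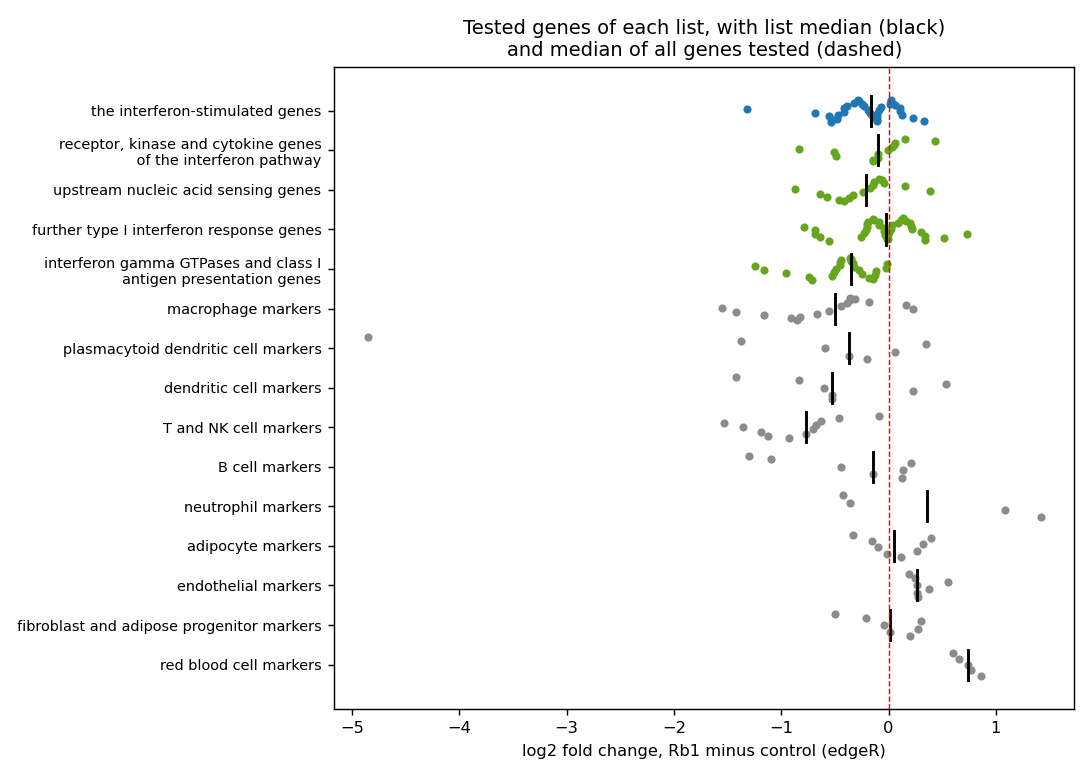
Log2 fold change (Rb1 minus control, edgeR) of each tested gene in the members (blue), 4 interferon pathway lists (green) and 10 cell type marker lists (grey), with the list median in black and the median of all genes dashed. Skeletal muscle markers, with a median of -6.65, are left off the axis, and the members' median is -0.16 against -0.50 for macrophage markers.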

How the data were processed

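White adipose RNA of 6 mouse libraries was sequenced. Reads were made into base calls with CASAVA 1.8 and aligned to mm10 with TopHat2 2.0.6, per the submitters' processing notes. Not given in the sources used here are counting tool, gene annotation and strand setting. The authors deposited a table of 22040 genes with a read count and an FPKM per library. The deposited FPKM equal the count divided by gene length and library total, to within 0.00984% on 13169 genes. Symbols came from the reference gene table (21933 of 22040 identifiers matched) and coordinates from GENCODE M21 on GRCm38.

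Counts were tested with edgeR 4.0.16 in R 4.3.3 (TMM scaling, filterByExpr with a minimum count of 10, quasi-likelihood test), with Benjamini-Hochberg adjustment over 14093 genes and a threshold of 0.05. DESeq2 1.42.0 was the alternative tool, and the script was tested on simulated data. There the edgeR test recovered 35% of 100 genes changed 2-fold and 95% of 100 changed 4-fold, with 9 false calls among 139. Levels are FPKM rescaled by the edgeR factors, and errors are SDs over 3 libraries. Overlap of groups was judged on scaled CPM. Replicate libraries of a group differed by more than sampling noise. Members and gene lists were chosen with earlier results of these data known. Sample values are given for members whose groups do not overlap, the 10 members with the smallest unadjusted p, and 12 representatives of the roles. In each pathway list the genes named are those called and up to 4 with the smallest p, beside the type I interferon genes, their receptor chains and Ifng. Of the macrophage markers, those named are the lowest in p and those above 0. Alternatives were other scalings, no filter, a replicate block, leaving out each library, control replicate 2 with Rb1 replicate 1, and members with overlapping exons. The last 2 were added after seeing the data.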

Additional observations from a re-analysis of the deposited data

How the results depend on the processing

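The members past the threshold numbered 0 in each direction under all settings run. Over all genes DESeq2 called 81 higher and 299 lower where edgeR called 1 and 0. Leaving out 1 library at a time gave 1 to 2 genes higher and 0 to 2 lower, 22 to 27 members below 0, 13 to 18 members with separate groups (12.9% to 16.2% of all genes lower and 11.4% to 15.6% higher) and medians from -0.25 to -0.09. Leaving out control replicate 2 and Rb1 replicate 1 together, chosen after seeing the data, gave 2 genes higher, 8 lower and 21 members with separate groups, 19 lower (55.9%, against 21.3% of all genes) and 2 higher (against 20.5% of all genes). Restricting to the 20 members whose exons overlap no other gene gave 14 below 0 and a median of -0.28. Of 408 member values under alternatives 381 kept their direction and 27 turned, and 22 members turned under none. With library totals alone the log2 fold change was -0.0196 for Ifih1, -0.0123 for Parp14, -0.0167 for Cmpk2 and -0.0203 for Ifi35. With both libraries left out it was 0.039 for Irf7, -0.0166 for Parp9, -0.1193 for Parp14, -0.1384 for Cmpk2 and -0.0105 for Ifi35. Leave-one-out ranges that crossed 0 were Irf7 -0.25 to 0.0541, Dhx58 -0.33 to 0.0147, Ifih1 -0.0282 to 0.0516, Oasl1 -0.81 to 0.0939, Oas2 -0.0718 to 0.25, Gbp2 -0.57 to 0.0321, Gbp7 -0.49 to 0.0887, Parp14 -0.15 to 0.10, Cmpk2 -0.10 to 0.12, Ifi35 -0.0181 to 0.084, Ifi44 -0.15 to 0.29. The cause was not tested. The replicate block gave 24 members below 0, a median of -0.18 and 0 members past the threshold, and it changed no call. Same-numbered libraries correlated at 0.1355, -0.1093 and 0.018 in their deviations, so the numbers were not taken as pairs. Counts were fewest for Mx1, Oas3 and Isg15, and 3 libraries per group limit all members.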
